A study of Arabidopsis thaliana with 8 samples.

Results

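Seeds of the pkr2-2;pkl-10 double mutant of Arabidopsis thaliana were compared with seeds of the Col-0 wild type, to describe what changes in the seed transcriptome when 2 genes of the CHD3 chromatin remodelers are mutated together. This comparison takes in 4 of the 8 sequenced samples, 2 biological replicates of pkr2-2;pkl-10 and 2 of Col-0, and all 38209 genes listed in its table. The double mutant carries pkr2-2, a T-DNA insertion in PKR2, and pkl-10, a T-DNA insertion in PKL, both in the Col-0 background and both described by the study as knockout alleles. The single mutants pkl-1 and pkr2-2, used below for values side by side, are in the same background, and pkl-1 is another allele of PKL than the one in the double mutant. All plants grew under 16 h of light at 21 °C and 8 h of dark at 18 °C, and at least 30 siliques were opened for each replicate. The sample labels give 4 days after pollination and the extraction protocol gives 3, and the hour of harvest was not given in the sources used here.

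CHD3 remodelers use the energy of ATP to move nucleosomes, and carry paired chromodomains that read histone tails. PICKLE (PKL) is known in Arabidopsis for shutting down embryonic genes in germinating seedlings and for acting with the Polycomb system, which keeps genes silent through trimethylation of histone H3 lysine 27. A seed a few days after pollination holds an embryo, a triploid endosperm that feeds it, and a maternal seed coat. In such a bulk sample, fewer cells of a type and less RNA per cell cannot be told apart.

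The measurement was FPKM, a count of fragments scaled to transcript length and library size, with a single value per genotype that the authors pooled over both replicates. No value therefore has an error between replicates, and no test between replicates was possible. Differences are given as log2((double mutant + 1)/(Col-0 + 1)), and a gene was called higher or lower when this value was at least 1 or at most -1, which is 2-fold on that scale. By this rule 2087 of the 19071 nuclear genes with at least 1 FPKM in either genotype were higher in the double mutant (10.9%) and 1683 were lower (8.82%). Among the 10619 well-expressed genes, those with at least 10 FPKM in either genotype, 892 were higher (8.4%) and 1043 were lower (9.82%). Centring on the median of the well-expressed genes turned this order, with 1049 of them higher and 872 lower, and gave 2542 higher and 1399 lower over all genes of at least 1 FPKM. With a 4-fold call the shares of genes of at least 1 FPKM were 2.02% higher and 2.19% lower, and those of well-expressed genes were 2.16% higher and 2.87% lower. The median difference was 0.04 over all genes of at least 1 FPKM and -0.11 over the well-expressed genes. For comparison, in their own tables against Col-0, 1210 genes were higher and 1108 lower in pkl-1, and 578 were higher and 372 lower in pkr2-2.

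**Figure D1:**
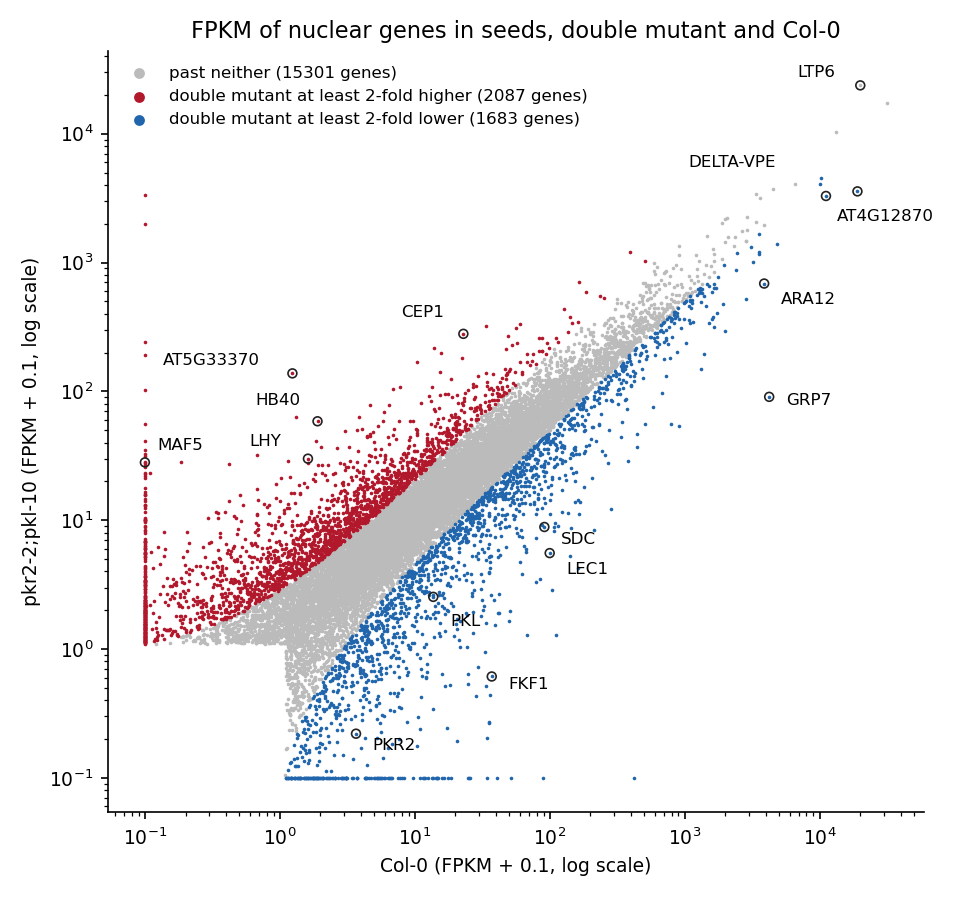
FPKM of each nuclear gene with at least 1 FPKM in either genotype, in the double mutant (vertical axis) and Col-0 (horizontal axis), with 0.1 FPKM added so that genes listed at 0 can be drawn on log scales. Genes at least 2-fold higher in the double mutant (2087) lie above the grey band and those at least 2-fold lower (1683) below it, and circles mark genes described in the text.

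Differences moved with the level and the length of the transcript. Genes above 300 FPKM were lower in 26.2% and higher in 1.39% of cases (431 genes), and genes under 3 FPKM were higher in 20.3% and lower in 12% (4263 genes), where the level is the geometric mean over both genotypes. Transcripts of 4000 nucleotides or more had a median difference of 0.38 (667 genes), against -0.71 for those under 300 (184 genes). Summed over nuclear genes, FPKM came to 0.736 of Col-0 in the double mutant, whose depth, estimated from the value of a single fragment, was 1.55 times that of Col-0. The part of level and length in the groups below was not tested. After centring within bins of transcript length, 116 of 129 called list members kept their call. The 13 that lost it were VAL1, OLEO1, AT1G50650, PHB, TT8, AHA10, TT10, CESA5, GPAT6, CDF2, RD29A, MAF1 and SIG3.

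**Figure D2:**
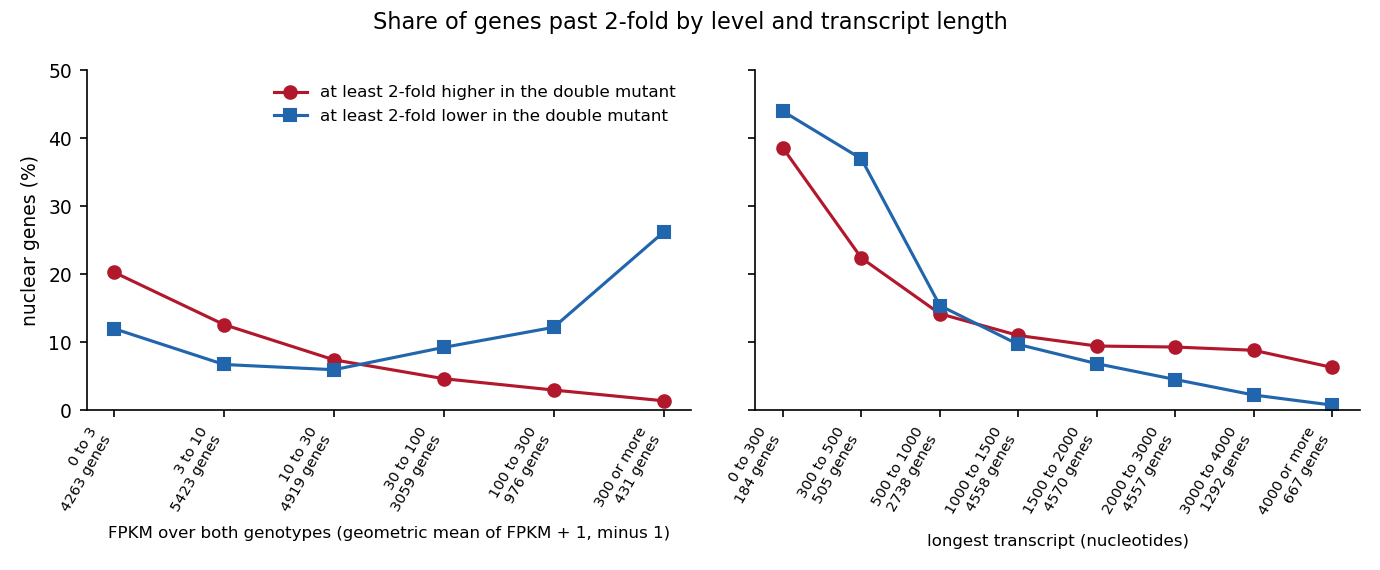
Percentage of nuclear genes at least 2-fold higher (circles) and at least 2-fold lower (squares) in the double mutant, by FPKM (left) and by the length of the longest transcript (right). The percentage that is lower reaches 26.2% above 300 FPKM and 44% under 300 nucleotides.

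The mutated genes were examined first. PKL (AT2G25170, TAIR10.1 chr2:10713807-10724106) was at 2.44 FPKM in double mutant seeds and 13.6 FPKM in Col-0, a difference of -2.09. PKR2 (AT4G31900, chr4:15431350-15438678) was at 0.120 FPKM in double mutant seeds and 3.57 FPKM in Col-0, a difference of -2.03. Both loci thus match the double mutant's label. In the single mutants, PKL was at 15.2 FPKM in pkl-1 against 12.8 FPKM in Col-0, so that the transcript level does not check that label, and PKR2 was at 0.168 FPKM in pkr2-2 against 3.06 FPKM in Col-0. The other CHD remodelers were not called, with PKR1 at 4.97 FPKM against 3.01 FPKM in Col-0 and CHR5 at 3.23 FPKM against 1.41 FPKM in Col-0. Of 12 Polycomb group genes, 0 were called in either direction. Their median difference was 0.46, with SWN, a histone methyltransferase, at 14.7 FPKM in double mutant seeds and 6.92 FPKM in Col-0, and FIS2, its partner in the endosperm, at 1.72 FPKM and 4.14 FPKM.

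Of the 13 maturation regulators, 10 reached 1 FPKM in either genotype, 4 were lower and 2 were higher, and with a pseudocount of 5 FPKM 1 was lower, LEC1, and 0 were higher. Over all genes 8.82% were lower and 10.9% higher. LEC1, the NF-Y subunit that drives embryo identity and maturation, was at 5.45 FPKM in double mutant seeds and 99.9 FPKM in Col-0, a difference of -3.97. Its close relative L1L was at 0.234 FPKM in double mutant seeds and 2.96 FPKM in Col-0. WRI1, an AP2 factor that turns on fatty acid synthesis, was at 6.998 FPKM in double mutant seeds against 17.6 FPKM in Col-0, and ABI3, a B3 factor of maturation, at 0.124 FPKM against 1.45 FPKM. L1L and ABI3 reached 1 FPKM through Col-0 alone, so nothing is read from the number of lower regulators. In the other direction, ABI5, a bZIP factor of abscisic acid signalling, was at 14.7 FPKM in double mutant seeds and 6.55 FPKM in Col-0. VAL1, a B3 protein known to repress maturation genes, was at 4.77 FPKM against 1.75 FPKM in Col-0. The remaining 7 included LEC2 at 0.298 FPKM in double mutant seeds against 1.55 FPKM in Col-0 and FUS3 at 0.322 FPKM against 0.851 FPKM.

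Storage genes stood near the floor of detection at this stage. Of the 13 storage protein and oleosin genes, 10 were listed at 0 in the double mutant, and 0 were listed at 0 in Col-0. SESA1, a 2S albumin, was listed at 0 in the double mutant and at 5.96 FPKM in Col-0, and SESA4 at 0 against 2.73 FPKM. OLEO3, an oil body protein, was at 0.105 FPKM in double mutant seeds and 4.17 FPKM in Col-0. OLEO4 did not share this, with 1.79 FPKM in double mutant seeds and 1.54 FPKM in Col-0. The 5 members called lower had reached 1 FPKM through Col-0 alone, so nothing is read from their number, and with a pseudocount of 5 FPKM 1 of them was called. Among 13 genes of oil synthesis, DGAT1, which makes triacylglycerol, was at 2.82 FPKM in double mutant seeds against 10.7 FPKM in Col-0, and FAD2, the oleate desaturase, at 499.9 FPKM against 1099 FPKM. The other 11 were not called, among them KASI at 73.8 FPKM in double mutant seeds and 95.4 FPKM in Col-0.

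The stretches before the storage genes held the RY element, CATGCA, in all 6 members of the list with at least 1 FPKM, against 7.2% of all 18387 protein-coding genes with such a stretch of 250 bases before the RefSeq gene start. Below they are shown for SESA1 (chr4:13607079-13607328, plus strand) and OLEO3 (chr5:20819818-20820067, plus strand) from the TAIR10.1 genome, 5′ to 3′, with RY elements on either strand in capitals, because these genes show the largest fall of the list.
SESA1: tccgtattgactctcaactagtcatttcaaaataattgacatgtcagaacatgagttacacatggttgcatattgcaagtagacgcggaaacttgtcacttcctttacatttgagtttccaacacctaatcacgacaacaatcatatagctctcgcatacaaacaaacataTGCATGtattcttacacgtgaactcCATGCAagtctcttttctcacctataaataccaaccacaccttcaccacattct
OLEO3: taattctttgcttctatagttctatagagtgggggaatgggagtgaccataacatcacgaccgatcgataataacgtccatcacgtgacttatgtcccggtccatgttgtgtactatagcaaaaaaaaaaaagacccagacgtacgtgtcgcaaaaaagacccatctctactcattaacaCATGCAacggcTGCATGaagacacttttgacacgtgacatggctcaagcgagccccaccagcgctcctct
Each of these stretches also held the G-box CACGTG, as did 5 of the 6 (83.3%), against 7.34% of all genes. Of the 6, 5 reached 1 FPKM through Col-0 alone, so nothing is read from these shares. OLEO4, which was not called, also held the RY element, so that element did not mark the lower genes alone.

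Single genes of embryo patterning differed in both directions. DRNL, an AP2 factor of the cotyledon founder cells, was at 0.173 FPKM in double mutant seeds and 8.59 FPKM in Col-0, and BBM, an AP2 factor of embryo growth, at 0.973 FPKM and 5.84 FPKM. The boundary genes CUC1 and CUC2 were lower as well, CUC2 at 0.577 FPKM in double mutant seeds and 4.91 FPKM in Col-0. WOX8, of the basal embryo, was at 0.984 FPKM against 4.22 FPKM in Col-0, and the root genes PLT1 and WOX5 were lower too. STM, the homeobox gene of the shoot meristem, was at 10.4 FPKM in double mutant seeds and 3.13 FPKM in Col-0, and PHB, an HD-ZIP III gene of adaxial identity, at 8.70 FPKM and 3.16 FPKM. In all, 7 of the 24 patterning genes were lower and 2 higher, against 8.82% lower and 10.9% higher over all genes. DRNL, BBM, CUC2 and WOX8 reached 1 FPKM through Col-0 alone, so nothing is read from the number lower. ATML1, a marker of the epidermis, was at 43.3 FPKM in double mutant seeds and 54.2 FPKM in Col-0. With a pseudocount of 5 FPKM 1 of the 24 was lower and 0 were higher. The marker list of the embryo had 4 of 8 members lower and 1 higher, and its summed level was 24.0 FPKM in double mutant seeds and 122.7 FPKM in Col-0, of which LEC1 made up most. This list includes L1L and BBM, so nothing is read from its number lower either.

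Some cell cycle genes were lower. KN, the syntaxin of the cell plate, was at 7.71 FPKM in double mutant seeds and 31.5 FPKM in Col-0, and CDKB1;1, a kinase of the entry into mitosis, at 9.98 FPKM and 38.3 FPKM. Of 18 cell cycle genes, 6 were lower and 1, CYCD3;3, was higher, at 33.8 FPKM in double mutant seeds against 16.2 FPKM in Col-0. With a pseudocount of 5 FPKM 2 were lower and 0 higher, and with a 4-fold call 0 were called. The median difference over the 18 was -0.73, and over all genes 8.82% were lower and 10.9% higher. Histone products, which are made in dividing cells, had 12 of 48 genes lower and 2 higher, with a median of -0.64.

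In the endosperm lists the differences ran downward. ZOU, the bHLH factor that directs endosperm breakdown, was at 2.59 FPKM in double mutant seeds and 9.56 FPKM in Col-0. ALE1, a subtilisin-like protease made in the endosperm and needed for the cuticle of the embryo, was at 1.80 FPKM in double mutant seeds and 24.0 FPKM in Col-0, a difference of -3.15. MINI3, a WRKY factor of endosperm growth, was at 1.72 FPKM against 6.43 FPKM in Col-0. Of the 11 genes of endosperm growth, 4 were lower and 0 higher, against 8.82% and 10.9% over all genes. With a pseudocount of 5 FPKM 1 of them remained lower. AT5G01075 was at 14.9 FPKM in double mutant seeds and 25.8 FPKM in Col-0 and was not called.

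Type I MADS box genes, which are switched on in the early endosperm, had 4 of 13 members lower (8.82% over all genes) and 0 higher. PHE1 was at 28.2 FPKM in double mutant seeds and 63.7 FPKM in Col-0, and PHE2, its neighbour and near copy, at 13.9 FPKM and 34.7 FPKM, so that reads could be shared between them. AT4G36590 was at 17.0 FPKM in double mutant seeds and 57.9 FPKM in Col-0. AGL62, whose product holds back endosperm cellularisation, was at 2.01 FPKM in double mutant seeds and 0.531 FPKM in Col-0, a difference of 0.98 that was not called. Of 13 imprinted genes, 5 were lower and 0 higher, against 8.82% and 10.9% over all genes. SDC, an F-box gene, was at 8.75 FPKM in double mutant seeds against 91.2 FPKM in Col-0. HDG3, a homeobox gene expressed from the paternal copy, was at 2.47 FPKM against 26.3 FPKM, and FWA, expressed from the maternal copy, at 11.1 FPKM against 25.96 FPKM. With a pseudocount of 5 FPKM 3 of the 13 were lower. The median of the imprinted list was -0.90. Among 12 genes of DNA methylation 1 was lower, near the share over all genes (8.82%). It was the demethylase gene ROS1, at 1.41 FPKM in double mutant seeds and 4.69 FPKM in Col-0.

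**Figure D3:**
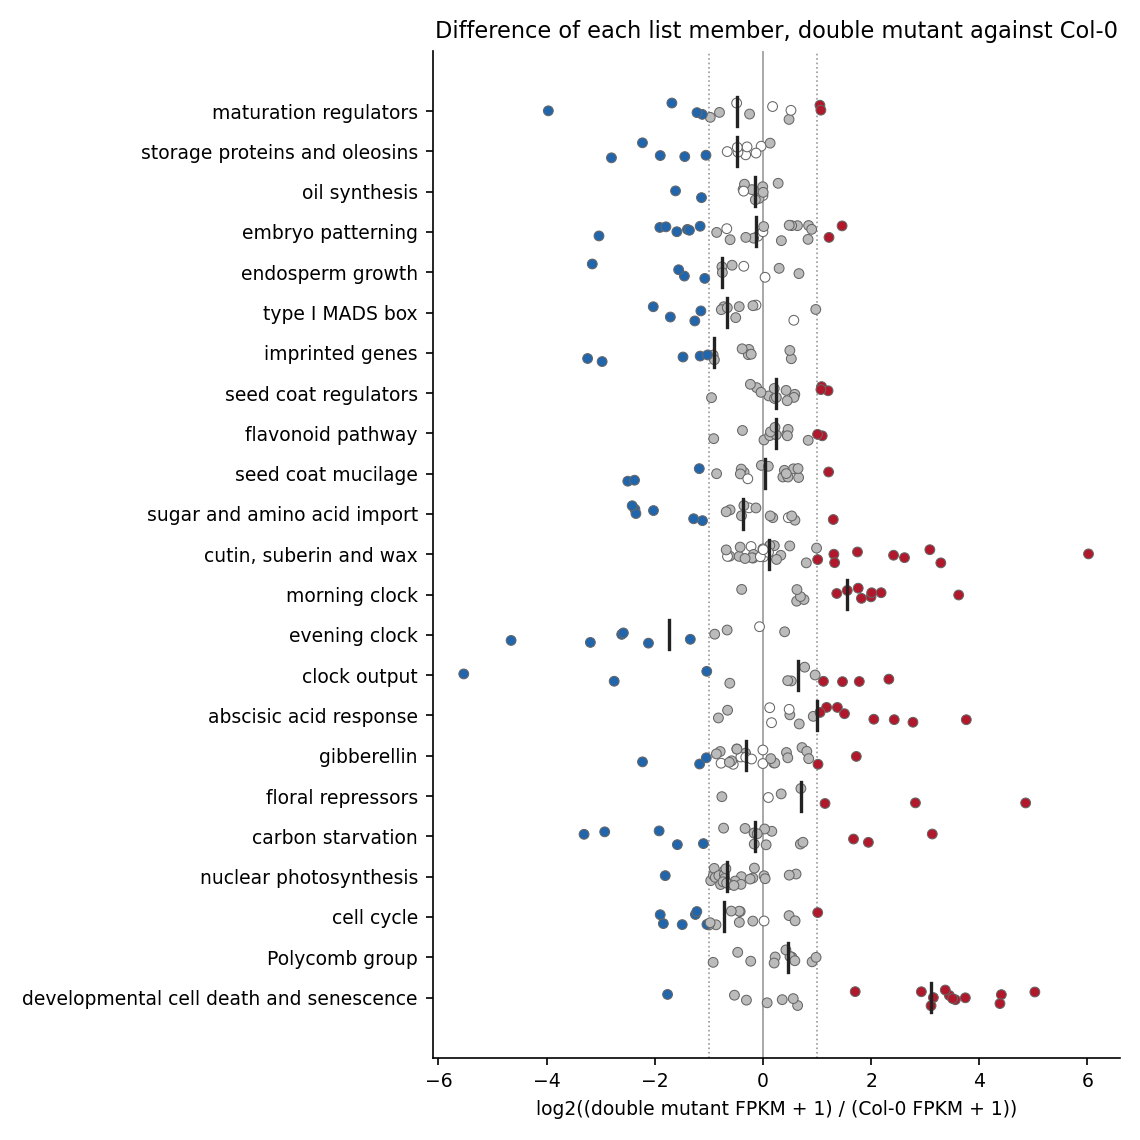
Difference of every member of 23 gene lists, as log2((double mutant FPKM + 1)/(Col-0 FPKM + 1)). Filled points past the dotted lines are genes at least 2-fold higher (red) or lower (blue), white points never reached 1 FPKM, and bars are list medians, which run from -1.73 in the evening clock to 3.11 in the cell death list, a list chosen after its values were seen.

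Of 15 regulators of the seed coat, TT8, TT16 and NARS2 were higher and 0 were lower, against 10.9% and 8.82% over all genes. With a pseudocount of 5 FPKM 1 of the 15 was higher. TT16, a MADS box gene of the inner coat, was at 34.8 FPKM in double mutant seeds and 14.5 FPKM in Col-0, while STK, a MADS box gene of ovule and seed identity, was at 558 FPKM and 469 FPKM. The flavonoid pathway, which makes the tannins of the coat, kept high levels in both genotypes. TT4, chalcone synthase, was at 3398 FPKM in double mutant seeds and 3353 FPKM in Col-0, and BAN, the anthocyanidin reductase, at 856 FPKM and 734 FPKM. AHA10, a proton pump of the vacuole, and TT10, a laccase, were higher (47.4 FPKM against 21.6 FPKM in Col-0, and 17.4 FPKM against 8.15 FPKM in Col-0). Both calls were lost after centring within transcript length and with a pseudocount of 5 FPKM, where 0 of 13 were called.

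Mucilage genes held a few large falls. ARA12, a subtilase that limits pectin demethylation in seed mucilage, was at 687 FPKM in double mutant seeds and 3885 FPKM in Col-0, a difference of -2.50. BXL1, a xylosidase and arabinosidase that trims pectin, was at 34.5 FPKM against 182.8 FPKM in Col-0. The median over the 18 members was 0.04, and over all genes 8.82% were lower and 10.9% higher. Of the 18, 3 were lower and 1, CESA5, a cellulose synthase subunit, was higher, at 21.6 FPKM in double mutant seeds and 8.74 FPKM in Col-0. That last call was lost after centring within transcript length. The marker list of the seed coat had 2 of 8 members higher and 0 lower, with a summed level of 1763 FPKM in double mutant seeds and 1430.5 FPKM in Col-0. The 2 higher members were AHA10 and TT10, whose calls were lost under the settings given above.

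The most abundant transcripts of the seeds also differed in part. LTP6, a lipid transfer protein gene, was at 23734 FPKM in double mutant seeds and 20030.0 FPKM in Col-0. AT1G56100, a pectin methylesterase inhibitor-like gene, was at 17327 FPKM against 31370.1 FPKM in Col-0, and was not called. AT4G12870, which encodes a GILT thiol reductase, was at 3568 FPKM in double mutant seeds and 19083 FPKM in Col-0. DELTA-VPE, the vacuolar processing enzyme of the inner seed coat, was at 3286 FPKM against 11154 FPKM in Col-0. The lipid transfer genes LTP3 and LP1 were lower as well, LTP3 at 4553 FPKM in double mutant seeds and 10269 FPKM in Col-0. CAB1, which encodes a chlorophyll-binding protein, was at 1385 FPKM against 4843 FPKM in Col-0. Of the 10 most abundant genes 5 were thus lower, and the other 5, LTP6 and AT1G56100 included, were not called. Among all nuclear genes above 300 FPKM as a geometric mean, 26.2% were lower and 1.39% higher. The 10 were ranked by their higher value in either genotype, and the part of level in their count was not tested.

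Transporters that bring sugar and amino acids into the seed were lower in 6 of 18 cases, against 8.82% over all genes. SUC2, the sucrose carrier of the phloem, was at 33.1 FPKM in double mutant seeds and 180.9 FPKM in Col-0, and the sucrose effluxers SWEET11 and SWEET12 were at 3.66 FPKM against 23.0 FPKM in Col-0 and 13.2 FPKM against 71.3 FPKM in Col-0. AAP8, an amino acid permease, was at 14.4 FPKM in double mutant seeds and 61.7 FPKM in Col-0. UMAMIT14 and CWINV4, an amino acid exporter and a cell wall invertase, were also lower. SUS3, a sucrose synthase, was higher, at 1.51 FPKM against 0.0199 FPKM in Col-0. The 4 other markers of phloem were not called, with SEOR1 at 5.17 FPKM in double mutant seeds and 2.79 FPKM in Col-0.

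Some genes of cutin, the polyester of the plant surface, ran the other way. AT5G33370, a GDSL lipase of the cutin list on chr5:12602468-12604832, was at 137.8 FPKM in double mutant seeds and 1.14 FPKM in Col-0, the largest difference of any gene in the lists fixed for this comparison (6.02). CYP86A7, a fatty acid hydroxylase, was at 26.7 FPKM against 1.83 FPKM in Col-0, and FAR1, a fatty acyl reductase, at 13.2 FPKM against 0.668 FPKM. SHN3, an AP2 factor that activates cutin genes, was at 43.4 FPKM in double mutant seeds and 12.2 FPKM in Col-0, and the related MYB factors MYB106 and MYB16 were higher too. LTL1, GPAT6 and CYP86A4 completed the 9 of 32 members of the cutin, suberin and wax list that were higher, and 0 were lower. Over all genes 10.9% were higher and 8.82% lower. The list median was 0.11, and 11 of the 32 members lay below 0. DCR, an acyltransferase of cutin, was at 369.7 FPKM in double mutant seeds and 293.8 FPKM in Col-0. Marker genes of the silique wall were also higher in part, with FUL at 6.07 FPKM in double mutant seeds and 0.749 FPKM in Col-0, and ALC at 104.2 FPKM and 35.4 FPKM. Of the 6 silique wall markers 3 were higher and 0 lower, their sum was 141.2 FPKM against 58.6 FPKM in Col-0, CRC was listed at 0 in both genotypes, and their part in the result was not tested. Markers of pollen summed to 5.47 FPKM against 2.13 FPKM in Col-0 and those of stomata to 0.619 FPKM against 2.22 FPKM.

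Morning and evening genes of the circadian clock differed in opposite directions. Its morning genes peak after dawn. Some of them, such as the MYB-like factors LHY and CCA1, repress evening genes, and some evening genes in turn repress morning genes. Others in the morning list act as coactivators. LHY was at 29.9 FPKM in double mutant seeds and 1.52 FPKM in Col-0, a difference of 3.62. CCA1, its partner, was at 10.9 FPKM against 1.98 FPKM in Col-0, and PRR9, a pseudo-response regulator, at 7.04 FPKM against 1.27 FPKM. LNK3, a coactivator that works with RVE8, was at 55.8 FPKM in double mutant seeds and 13.1 FPKM in Col-0, and RVE8 at 5.08 FPKM and 0.337 FPKM. With RVE4, LNK1 and LNK2, 8 of the 13 morning genes were higher and 0 lower, and the median was 1.56. Over all genes 10.9% were higher and 8.82% lower. With a pseudocount of 5 FPKM 6 of the 13 were higher. RVE8 reached 1 FPKM through the double mutant alone, so nothing is read from the number higher.

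The evening genes were lower. FKF1, a blue light receptor that times flowering, was at 0.512 FPKM in double mutant seeds and 37.1 FPKM in Col-0, a difference of -4.66. PRR5 was at 0.327 FPKM against 11.1 FPKM in Col-0. LUX and ELF4, parts of the evening complex, were at 5.05 FPKM against 35.2 FPKM in Col-0 and 2.18 FPKM against 18.4 FPKM in Col-0. TOC1 and BOA were lower too, so that 6 of the 10 evening genes were lower and 0 higher. Over all genes 8.82% were lower and 10.9% higher. With a pseudocount of 5 FPKM 5 of the 10 were lower. FKF1 and PRR5 reached 1 FPKM through Col-0 alone, so nothing is read from the number lower. GI, at 8.71 FPKM in double mutant seeds and 17.0 FPKM in Col-0, was not called. After centring within transcript length, 8 morning genes were higher and 7 evening genes lower. The hour of harvest was not given, and its part in the clock differences was not tested.

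Outputs of the clock showed the largest fall of a well-expressed transcript of at least 500 nucleotides. GRP7, an RNA-binding protein gene that cycles with an evening peak (AT2G21660, chr2:9265084-9266557), was at 90.6 FPKM in double mutant seeds and 4232 FPKM in Col-0, a difference of -5.53. GRP8, its near copy, was at 295.7 FPKM against 1994 FPKM in Col-0. COR27 and AT4G33980, a pair of cold- and clock-regulated genes, were at 1.15 FPKM against 19.4 FPKM in Col-0 and 0.490 FPKM against 5.28 FPKM in Col-0. The other way, COL1, a CONSTANS-like factor, was at 9.72 FPKM in double mutant seeds and 1.13 FPKM in Col-0, and AT1G69570 at 17.9 FPKM and 4.49 FPKM. FT, the flowering signal, was at 200.9 FPKM in double mutant seeds and 145.9 FPKM in Col-0 and was not called. Of the 12 output genes, 4 were higher and 3 lower, and 2 each with a pseudocount of 5 FPKM. In the cold list of 13, the COR27 pair and COR15B were lower and KIN2, RD29A and ERD10 were higher, and with a pseudocount of 5 FPKM 1 was lower and 2 higher. Beside both lists, 10.9% of all genes were higher and 8.82% lower. AT4G33980 reached 1 FPKM through Col-0 alone, so nothing is read from the number lower in the cold list.

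The evening element, AAAATATCT, to which LHY and CCA1 bind, stood in the 250 bases before 5 of the 9 evening genes with at least 1 FPKM (55.6%), against 485 of 18387 protein-coding genes (2.64%). It stood before 5.57% of the 1544 genes called lower and 2.73% of the 1907 called higher, and before 6.17% of the well-expressed lower genes. The G-box stood before 7 of 13 morning genes (53.8%), against 7.34% of all genes. Over all called genes it was no more frequent than that, at 6.66% of the higher and 6.74% of the lower genes. Both motifs were searched on both strands, and a match is a description of the letters. FKF1, PRR5 and RVE8 reached 1 FPKM through a single genotype, so nothing is read from the shares of the clock lists. The stretches of 250 bases are shown for 4 lower and then 2 higher genes that hold a motif and are described above, read from the TAIR10.1 genome 5′ to 3′, with the evening element on either strand in capitals for GRP7 (chr2:9266558-9266807, minus strand), FKF1 (chr1:25508389-25508638, plus strand), LUX (chr3:17182792-17183041, plus strand) and TOC1 (chr5:24674713-24674962, plus strand).
GRP7: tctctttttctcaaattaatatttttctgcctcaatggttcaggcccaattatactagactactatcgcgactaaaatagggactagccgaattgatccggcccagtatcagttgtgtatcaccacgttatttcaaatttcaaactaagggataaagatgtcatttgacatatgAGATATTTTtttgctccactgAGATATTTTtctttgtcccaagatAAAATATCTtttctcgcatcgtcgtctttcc
FKF1: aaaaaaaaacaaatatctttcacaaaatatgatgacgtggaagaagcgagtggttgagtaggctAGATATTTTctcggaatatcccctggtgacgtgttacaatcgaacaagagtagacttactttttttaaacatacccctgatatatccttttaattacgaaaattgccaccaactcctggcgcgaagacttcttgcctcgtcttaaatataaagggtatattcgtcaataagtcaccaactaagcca
LUX: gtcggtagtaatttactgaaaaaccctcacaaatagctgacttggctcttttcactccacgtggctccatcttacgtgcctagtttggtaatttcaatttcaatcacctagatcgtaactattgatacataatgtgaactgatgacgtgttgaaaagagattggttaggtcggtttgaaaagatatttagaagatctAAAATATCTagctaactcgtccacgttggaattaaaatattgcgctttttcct
TOC1: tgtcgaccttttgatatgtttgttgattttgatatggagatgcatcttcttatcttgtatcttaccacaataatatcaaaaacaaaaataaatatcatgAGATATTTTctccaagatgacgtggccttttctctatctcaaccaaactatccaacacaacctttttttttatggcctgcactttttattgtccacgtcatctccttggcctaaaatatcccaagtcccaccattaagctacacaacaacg
The same stretches follow for LHY (chr1:37872-38121, minus strand) and PRR9 (chr2:19232357-19232606, plus strand), with the G-box in capitals.
LHY: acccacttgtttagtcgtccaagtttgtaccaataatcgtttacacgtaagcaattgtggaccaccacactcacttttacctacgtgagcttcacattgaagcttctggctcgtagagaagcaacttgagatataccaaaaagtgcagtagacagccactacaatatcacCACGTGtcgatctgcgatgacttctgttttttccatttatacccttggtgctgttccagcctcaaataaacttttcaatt
PRR9: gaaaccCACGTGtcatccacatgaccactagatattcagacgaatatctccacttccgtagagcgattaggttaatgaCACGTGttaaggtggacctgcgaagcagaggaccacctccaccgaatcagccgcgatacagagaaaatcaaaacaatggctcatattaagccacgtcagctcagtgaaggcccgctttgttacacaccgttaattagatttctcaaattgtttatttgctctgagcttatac
GRP7 held 3 evening elements and PRR9 held 2 G-boxes. LUX, which was lower, held both motifs, so the G-box did not mark the higher genes alone.

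**Figure D4:**
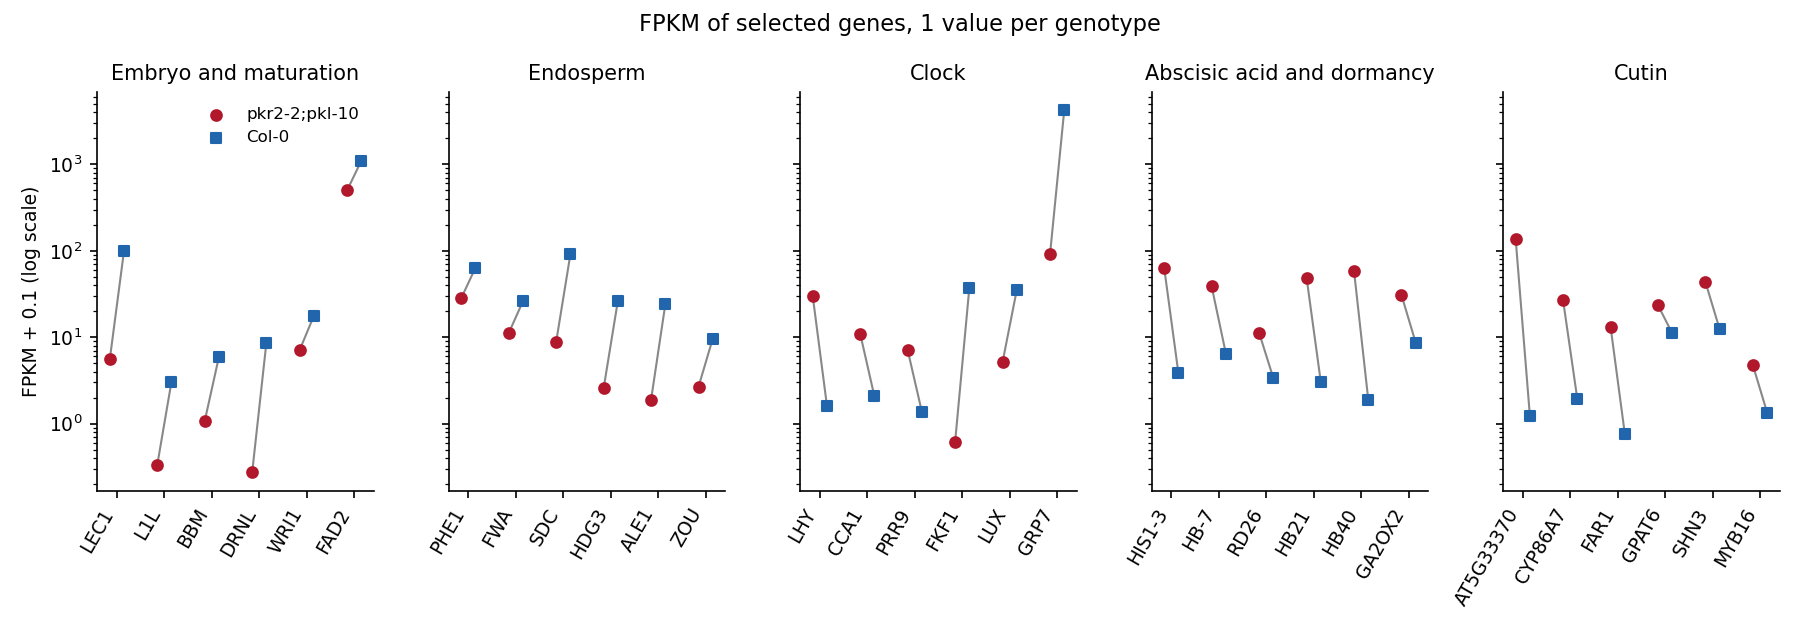
FPKM of 30 genes in the double mutant (circles) and Col-0 (squares) on a log scale with 0.1 FPKM added, a single pooled value per genotype and no error. Lines join the values of a gene, so that lines falling to the right, as for LHY (29.9 and 1.52 FPKM), are higher in the double mutant and lines rising to the right, as for GRP7 (90.6 and 4232 FPKM), are lower.

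Genes that answer abscisic acid, the hormone of dormancy and drought, were higher in 8 of 16 cases and lower in 0. Over all genes 10.9% were higher and 8.82% lower. HIS1-3, a linker histone known to be induced by drought, was at 63.4 FPKM in double mutant seeds and 3.75 FPKM in Col-0. HB-7, a homeobox gene of the same response, was at 38.7 FPKM against 6.39 FPKM in Col-0, and RD26, a NAC factor, at 11.2 FPKM against 3.28 FPKM. The phosphatase genes HAB1, HAB2 and HAI2, which damp the signal, were higher too, HAB2 at 10.9 FPKM in double mutant seeds and 3.57 FPKM in Col-0. Yet RAB18 was at 0.588 FPKM against 1.81 FPKM in Col-0, and 0 of 12 genes of abscisic acid synthesis and breakdown were called in either direction. HB21 and HB40, homeobox genes known from bud dormancy, were at 48.9 FPKM against 2.95 FPKM in Col-0 and 58.5 FPKM against 1.80 FPKM in Col-0. With a pseudocount of 5 FPKM, 4 genes of the abscisic acid list were called higher.

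Of 27 gibberellin genes, 2 were higher and 3 lower, shares near those over all genes (10.9% and 8.82%), and 1 was higher and 0 lower with a pseudocount of 5 FPKM. GA2OX2, which inactivates gibberellin, was at 30.6 FPKM in double mutant seeds and 8.56 FPKM in Col-0. GA20OX3, KAO2 and GA3OX1, which act in synthesis, were lower, GA20OX3 at 0.311 FPKM against 5.13 FPKM in Col-0 and GA3OX1 at 4.98 FPKM against 11.3 FPKM. The repressors of the pathway were not called, with RGL2 at 55.3 FPKM in double mutant seeds and 30.3 FPKM in Col-0. In the auxin list 1 of 14 genes was higher and 1 lower, which is no more than the shares over all genes (10.9% and 8.82%). These were TAR2, of auxin synthesis, at 18.4 FPKM against 47.5 FPKM in Col-0, and PIN3, an auxin exporter, at 30.9 FPKM against 12.9 FPKM.

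MADS box repressors of flowering, a family under Polycomb control, were higher in 3 of 7 cases and lower in 0. Over all genes 10.9% were higher and 8.82% lower. MAF5 (AT5G65080, chr5:25997504-26002619) was at 28.0 FPKM in double mutant seeds and listed at 0 in Col-0. MAF4, its neighbour on the chromosome, was at 7.89 FPKM against 0.259 FPKM in Col-0, and MAF1 at 53.3 FPKM against 23.5 FPKM. FLC, the founding member, was at 0.0722 FPKM in double mutant seeds and listed at 0 in Col-0, and MAF3 was at 6.03 FPKM and 4.56 FPKM. MAF4 and MAF5 reached 1 FPKM through the double mutant alone, so nothing is read from the number higher. The call of MAF1 was lost after centring within transcript length.

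Many transcripts of the chloroplast genome were lower, while nuclear photosynthesis genes were mostly not called. Of the 129 genes of the chloroplast genome 57 reached 1 FPKM in either genotype, and of these 57, 48 were lower and 0 higher. With a 4-fold call 22 were lower. Over all 129 genes these are 37.2% and 17.1%, which unlike the nuclear shares count genes under 1 FPKM. The photosystem gene psbK was at 21.1 FPKM in double mutant seeds and 171.9 FPKM in Col-0, and rbcL, the large subunit of RuBisCO, at 8.01 FPKM and 40.8 FPKM. The summed chloroplast level was 229 FPKM against 1101 FPKM in Col-0. Mitochondrial genes moved with them, at a sum of 203.8 FPKM against 1185 FPKM in Col-0. The libraries were made from mRNA, and how much organelle RNA each of them retained was not tested. Of 25 nuclear photosynthesis genes 1 was lower, LHCB1.3, another name of CAB1. The median of these 25 was -0.67, with RBCS1A, the small subunit of RuBisCO, at 2072 FPKM in double mutant seeds and 3381 FPKM in Col-0. PORB, an enzyme of chlorophyll synthesis, was at 14.4 FPKM against 100.5 FPKM in Col-0, while SIG5, a plastid sigma factor, was at 13.7 FPKM against 4.97 FPKM.

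Carbon starvation genes differed in both directions. ASN1, an asparagine synthetase induced by darkness, was at 22.9 FPKM in double mutant seeds and 1.72 FPKM in Col-0, and LKR, of lysine breakdown, at 37.6 FPKM and 9.004 FPKM. DIN10, a raffinose synthase-like gene of the same response, was at 7.12 FPKM against 79.3 FPKM in Col-0, and KFB20, a kelch F-box gene, at 3.82 FPKM against 35.6 FPKM. Of 19 members 3 were higher and 5 lower, and 3 each with a pseudocount of 5 FPKM. Over all genes 10.9% were higher and 8.82% lower.

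Among product families, transcription factors and small auxin genes were higher more often than all genes. Of 72 bHLH genes with at least 1 FPKM, 34 were higher (47.2%) and 2 lower, against 10.9% higher over all genes, with MYC4, of jasmonate signalling, at 26.3 FPKM in double mutant seeds and 6.95 FPKM in Col-0. Of 46 SAUR genes, small auxin-induced genes, 27 were higher and 3 lower, with AT2G21220 at 51.2 FPKM against 6.86 FPKM in Col-0. Of 29 WRKY genes, 13 were higher and 1 lower. Among genes with at least 10 FPKM, 7 of 12 SAUR genes, 14 of 33 bHLH genes and 1 of 7 WRKY genes were higher. AXR3, an Aux/IAA repressor, was at 59.3 FPKM in double mutant seeds and 9.59 FPKM in Col-0, and 8 of 25 genes of that family were higher and 3 lower.

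Families of cell wall and secreted proteins went in different directions. Of 36 subtilases, 13 were lower (36.1%) and 2 higher, against 8.82% lower and 10.9% higher over all genes. Pectin methylesterases and their inhibitors had 26 of 78 genes lower and 15 higher, with AT2G45220 at 14.2 FPKM in double mutant seeds and 161.3 FPKM in Col-0. The pectate and pectin lyases leaned the other way, at 15 of 62 higher and 9 lower, with the pectate lyase gene AT1G67750 at 196.7 FPKM against 15.4 FPKM in Col-0. Expansins and xyloglucan enzymes had 16 of 42 higher and 7 lower, but the largest single differences were falls, with EXPA21 at 195.1 FPKM in double mutant seeds and 1389 FPKM in Col-0. Of 66 genes of protease inhibitors and defensin-like peptides, 26 were lower and 10 higher, and after centring within transcript length 19 and 15. Lipid transfer proteins had 22 of 65 lower and 14 higher, and 16 each after that centring. The genes AT5G38160 (1.18 FPKM in double mutant seeds and 111.5 FPKM in Col-0) and AT1G62510 (63.3 FPKM and 1.22 FPKM) mark their extremes. GDSL lipases likewise held AT5G33370 and, at the other end, AT1G71250, at 0.102 FPKM in double mutant seeds and 34.0 FPKM in Col-0. Of 319 cytosolic ribosomal protein genes, which are short and abundant, 52 were lower and 1 higher, with a median of -0.69, and 25 were lower after centring within transcript length.

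A list of 19 genes of developmental cell death and senescence was drawn up after the values were seen, because several of its members stood among the highest differences, so its count is a description of that choice. Of the 19, 12 were higher and 1 lower, against 10.9% and 8.82% over all genes. The lower member was DELTA-VPE, at 3286 FPKM in double mutant seeds and 11154 FPKM in Col-0. Over the 19 the summed level was 4263 FPKM in double mutant seeds and 11398 FPKM in Col-0, of which DELTA-VPE made up most. BFN1, a nuclease of dying cells, was at 104.1 FPKM in double mutant seeds and 6.85 FPKM in Col-0, and CEP1, a cysteine protease of programmed cell death, at 279.5 FPKM and 22.8 FPKM. MC9, a metacaspase of xylem cell clearance, was at 45.2 FPKM against 4.36 FPKM in Col-0, and NAC6, a NAC factor of leaf ageing, at 32.0 FPKM against 0.582 FPKM. SAG12, the protease that marks senescent leaves, was at 27.0 FPKM in double mutant seeds and 0.317 FPKM in Col-0, and DMP1 was at 31.6 FPKM and listed at 0 in Col-0. The xylem proteases XCP1 and XCP2 were at 8.65 FPKM against 8.14 FPKM in Col-0 and 26.2 FPKM against 32.6 FPKM in Col-0. Silique wall markers were also higher in the double mutant, as given above, and their part here was not tested.

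The 15 highest and 15 lowest differences among well-expressed genes held 7 and 6 transcripts that code for no protein, and 7 and 6 shorter than 300 nucleotides. In the highest 15, 13 genes were listed at 0 in Col-0, and 2 of these, the 18S ribosomal RNA gene AT3G41768 and its neighbour AT3G06365, carry a note in the file that depth exceeded what could be processed, so that their 0 is no measurement. Of the coding genes, AT2G20870, a cell wall protein precursor, was at 27.8 FPKM in double mutant seeds and listed at 0 in Col-0. Among the lowest, AT5G22810, a GDSL lipase, was at 1.18 FPKM against 67.2 FPKM in Col-0, and GATA29, a zinc finger factor, at 0.169 FPKM against 35.1 FPKM. AT5G63250, of a family with a carbohydrate-binding X8 domain, was at 4.19 FPKM in double mutant seeds and 161.1 FPKM in Col-0, AT3G15960, annotated as a mismatched DNA binding protein, at 2.75 FPKM and 104.6 FPKM, and ENODL10, an early nodulin-like protein gene, at 0.338 FPKM and 36.01 FPKM.

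The single mutants were set beside the double mutant, each from its own table, and since the Col-0 libraries are shared, no agreement between them was computed. LEC1 was at 13.4 FPKM in pkl-1 against 93.9 FPKM in Col-0, and at 67.6 FPKM in pkr2-2 against 85.6 FPKM in Col-0. HB40 was at 52.9 FPKM in pkl-1 against 1.696 FPKM in Col-0, and at 2.33 FPKM in pkr2-2 against 1.55 FPKM in Col-0. For both of these genes the pkr2-2 value lay within 2-fold of Col-0. BFN1 had the same order, with 80.5 FPKM in pkl-1 against 6.44 FPKM in Col-0 and 7.49 FPKM in pkr2-2 against 5.88 FPKM in Col-0.

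For GRP7 and FKF1 both single mutants held values between those of the double mutant and Col-0. GRP7 was at 851 FPKM in pkl-1 against 3980.3 FPKM in Col-0 and at 464 FPKM in pkr2-2 against 3630.1 FPKM in Col-0. FKF1 was at 7.78 FPKM in pkl-1 against 34.9 FPKM in Col-0 and at 2.16 FPKM in pkr2-2 against 31.8 FPKM in Col-0. LHY, in contrast, was at 2.36 FPKM in pkl-1 against 1.43 FPKM in Col-0 and at 2.54 FPKM in pkr2-2 against 1.301 FPKM in Col-0, and was called in neither. By count, 8 of the 13 morning genes were higher in the double mutant, 1 in pkl-1 and 1 in pkr2-2, while 6 of the 10 evening genes were lower in the double mutant, 2 in pkl-1 and 6 in pkr2-2. Over all genes the shares higher were 10.9%, 6.52% and 3.2% in the same order, and those lower 8.82%, 5.97% and 2.06%. The limit given above on the clock counts of the double mutant holds here too. MAF5 was at 1.31 FPKM in pkl-1 and 3.15 FPKM in pkr2-2, and was listed at 0 in Col-0 in both of those tables. AT5G33370 was at 58.4 FPKM in pkl-1 against 1.07 FPKM in Col-0 and at 27.5 FPKM in pkr2-2 against 0.979 FPKM in Col-0. In the tables that set the double mutant against each single mutant, LHY was at 34.0 FPKM in double mutant seeds and 2.83 FPKM in pkl-1, and HB21 at 55.7 FPKM in both the double mutant and pkl-1.

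**Figure D5:**
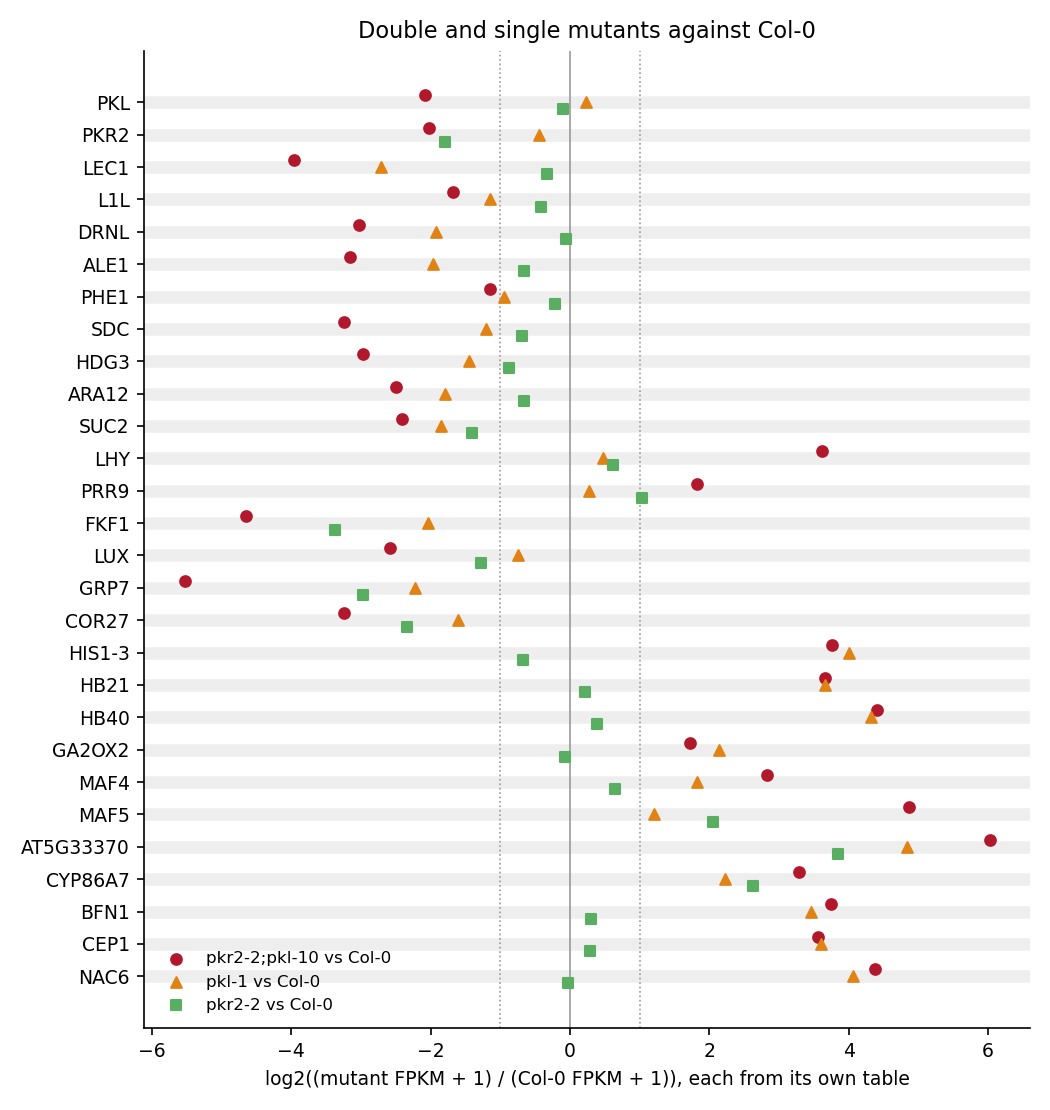
Difference of 28 genes from Col-0 in the double mutant (circles), pkl-1 (triangles) and pkr2-2 (squares), as log2((mutant FPKM + 1)/(Col-0 FPKM + 1)), each from its own table. LHY lies at 3.62 in the double mutant, 0.47 in pkl-1 and 0.62 in pkr2-2, and HB40 at 4.41, 4.32 and 0.39.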

How the data were processed

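Seed mRNA of 4 genotypes, with 2 biological replicates each (8 samples), was sequenced by the authors in paired ends. The authors removed low-quality reads with Fastp, mapped the rest to TAIR10.1 with TopHat (2.1.1 in the submitters' processing notes) and computed FPKM with Cufflinks (2.2.1.3), and one table was deposited for each of 5 comparisons. The FPKM deposited in each table is a single value per genotype over both replicates, so the spread between replicates is unknown. The tables also hold the authors' own fold changes, test statistics, p-values and q-values, which were not used. Every column of expression values had a labelled genotype, so 0 were set aside.

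Of 38209 genes, 37940 matched a locus tag of the RefSeq annotation of TAIR10.1, from which symbols, products, positions and transcript lengths were taken. Differences were log2((double mutant + 1)/(Col-0 + 1)), and a gene of at least 1 FPKM in either genotype was called at a difference of at least 1 in size. With 1 value per genotype no test was run. Depth was compared through the smallest FPKM of long coding transcripts, taken as 1 fragment. Counting was tested on simulated data. Motifs were searched in the 250 bases before the gene start, on both strands. A sequence withheld from this text is not reported here.

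Genes named were PKL and PKR2, the 15 highest and 15 lowest differences among nuclear genes of at least 10 FPKM, the 10 most abundant nuclear genes, members of 29 gene lists and 7 marker lists, and the 2 members of each of 26 product families with the largest difference. Genes named in the closing part and the cell death list, with families marked there, were chosen after their values were seen. The members and lists were all chosen with earlier results of these data known. Alternatives were other pseudocounts, other FPKM minimums, centring on well-expressed genes, a 4-fold call and transcripts of at least 500 nucleotides. Protein-coding genes alone and centring within bins of transcript length were added after the data were seen. Python 3.11.15, numpy 2.4.6, pandas 2.3.3 and matplotlib 3.10.9 were used.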

Additional observations from a re-analysis of the deposited data

How the results depend on the processing

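No paired analysis was possible because each genotype has 1 value pooled over its replicates, and for the same reason no replicate could be left out. With a pseudocount of 5 FPKM, 705 genes were higher and 914 lower, 590 well-expressed genes were higher, 71 members of the gene lists were called in place of 129, and 31 chloroplast genes were lower. With a 4-fold call, 385 genes were higher and 418 lower, 229 and 305 among well-expressed genes, with 48 list members called and 22 chloroplast genes lower. At a minimum of 5 FPKM 1358 genes were higher, and at 30 FPKM 327 well-expressed genes were higher. Centring on the median of well-expressed genes moved the median of all genes to 0.15 and made higher calls more common than lower ones among well-expressed genes (1049 and 872). Of the 129 list members called, 0 changed direction under any of these settings or under centring within transcript length, and 116 kept their call under that last one. Leaving out the filter on low values changed no count, because a gene past 2-fold on this scale has at least 1 FPKM in a genotype. Of transcripts under 300 nucleotides 38.6% were higher and 44% lower, and a value of a few FPKM there rests on few fragments.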

Other observations

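Genes called in the same direction stood next to each other in places, which no list had asked for. With genes ordered along the chromosome among those of at least 1 FPKM, 8 runs of 4 or more neighbours were higher and 11 were lower. Neighbouring genes of a family can share reads, and these runs were picked after their values were seen. The longest had 7 genes of chromosome 1 from 10301377 to 10309896, mostly SAUR genes, with SAUR63 at 7.13 FPKM in double mutant seeds and 1.22 FPKM in Col-0. Among the lower runs, 5 lipid transfer genes lay on chromosome 5 from 15225767 to 15251320, with AT5G38170 at 8.25 FPKM in double mutant seeds against 212.6 FPKM in Col-0. A run with NF-YC5, NF-YC6 and NF-YC7, subunits of the NF-Y factor to which LEC1 also belongs, had NF-YC6 at 28.6 FPKM in double mutant seeds and 91.7 FPKM in Col-0. Other lower runs held self-incompatibility-like proteins, SCR-like cysteine-rich peptides (SCRL4 at 27.8 FPKM against 97.5 FPKM in Col-0), low-molecular-weight cysteine-rich peptides (LCR73 at 203.3 FPKM against 884.5 FPKM in Col-0) and X8 domain proteins (AT5G63230 at 55.3 FPKM against 508.1 FPKM in Col-0). Over whole chromosomes the share of higher genes ran from 10.4% to 11.6% and that of lower genes from 8.73% to 9.04%.

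Some families chosen after their values were seen had most of their calls in a single direction, so their counts are a description of that choice. Over all genes 8.82% were lower and 10.9% higher. Of 32 genes with a DUF239 domain and at least 1 FPKM, 15 were lower and 2 higher, with AT4G15050 at 74.9 FPKM in double mutant seeds and 581.1 FPKM in Col-0, and AT5G25410 at 8.65 FPKM and 143.9 FPKM. All 3 caleosin genes of at least 1 FPKM, whose products coat oil droplets or answer stress, were higher, among them RD20 at 319.3 FPKM in double mutant seeds and 33.7 FPKM in Col-0. Of 34 arabinogalactan protein genes, which make cell surface glycoproteins, 11 were higher and 2 lower, with AGP2 at 108.1 FPKM against 7.70 FPKM in Col-0.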
